A study of Mus musculus with 100 samples.

Results

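The change from neural progenitors to neurons was followed in cells of the genotype Mll3-/-;Mll4flox/flox, by setting the 2 RNA libraries labelled flox1 and flox2 at day 16 of neural differentiation against the 2 with those names at day 8. These 4 libraries were chosen by their labels from 100 samples, of which 37 have an RNA table. The study concerns the histone methyltransferases MLL3 and MLL4 (KMT2C and KMT2D), which act on lysine 4 of histone H3, in mouse embryonic stem cells, their differentiated derivatives and embryos. In the 4 flox libraries Mll4 is floxed, no Cre is named, and Mll3 carries the null label. The neural libraries of the genotype Mll3-/-;Mll4KI/KI, which come from clones 27 and 48 and carry the same Mll3 null label, served as a second reference with 2 libraries at each day. The labels do not spell out KI, nor whether flox1 and flox2 are separate lines, clones or cultures. Adjusted p-values therefore measure the spread between these libraries, which may be technical.

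Stem cells were grown in medium with LIF and inhibitors of MEK and GSK3, and were aggregated in hanging drops and then in suspension. Aggregates received 5 µM retinoic acid after day 4. They were dissociated at day 8 into what the labels call ES-derived neural progenitor cells, which were plated on laminin and moved through N-2 medium into B-27 medium. The cells harvested at day 16 are labelled ES-derived neurons. Dissociation, plating, medium and the end of the retinoic acid step differ between the days, so their parts and that of time cannot be told apart.

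Neural progenitors divide, express SOX family factors and intermediate filaments such as nestin and vimentin, and are kept from differentiating by Notch signalling through HES factors. Proneural basic helix-loop-helix (bHLH) factors such as the neurogenins act for a short time in cells about to leave the cycle, after which the daughter cell builds axons, dendrites and synapses. Retinoic acid given to aggregates pushes progenitors toward hindbrain and spinal cord identity, where Hox genes mark position along the body axis.

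Poly(A) RNA gave 39.0 to 55.0 M reads counted to genes in the 4 flox libraries and 43.5 to 59.9 M in the 4 KI libraries. Levels are given as CPM, the reads of a gene for each 1e6 reads of the library size after TMM scaling, which was 40.0 to 56.9 M in the flox libraries. A count of 0 in a flox library allows up to 0.0527 to 0.075 CPM (3 reads, counting error only). The day 8 libraries flox1 and flox2 differed by little more than counting noise, where the chi-square divided by its degrees of freedom was 1.5, and 27.9 for the day 16 pair, so the day 8 values may come from less than 2 independent samples. Of 16439 genes tested, 77.1% passed an adjusted p of 0.05 (edgeR quasi-likelihood test, Benjamini-Hochberg adjustment). Such genes are said to have risen or fallen, and 38.4% of all genes rose and 38.7% fell. A change of at least 2-fold was seen in 42.3%, with 24.1% higher and 18.3% lower at day 16. The median log2 fold change of all genes was -0.02. Since so many genes passed the test, the size of a change separates gene groups more than its call does: 592 genes rose and 255 fell by at least 16-fold. Genes that rose by 2-fold or more had a median length of 1.14 relative to the median of all genes tested, and those that fell by as much had 0.869. Gene lists below are described by their members' counts and medians beside these shares, with no test of the list.

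**Figure D1:**
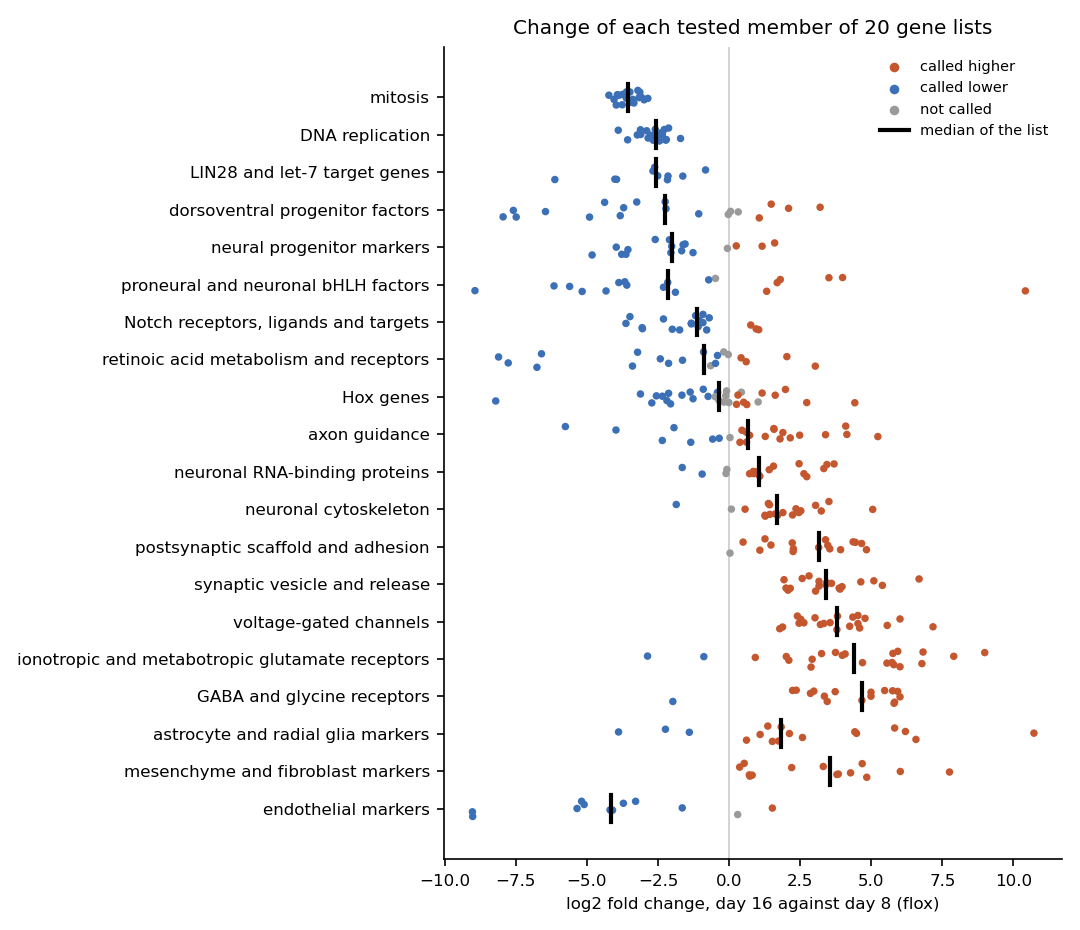
Log2 fold change from day 8 to day 16 in flox cells for every tested member of 20 gene lists (1 point per gene, coloured by its call, with a black bar at the list median). Replication and mitosis genes lie wholly below 0, while synaptic vesicle genes and voltage-gated channels lie wholly above it.

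The targeted genes were measured in every library. Kmt2c (Mll3) had 62.1 and 63.8 CPM at day 8 and 96.1 and 88.1 CPM at day 16, although its label is null. Kmt2d (Mll4) had 191 and 186 CPM at day 8 and 190 and 206 CPM at day 16. Counts over a whole transcript say nothing of a deleted exon or of loxP sites, so they do not check the genotype. Kmt2c rose by 0.55 on the log2 scale (SE 0.10, adjusted p = 2.05e-04) and Kmt2d differed by 0.07 (adjusted p = 0.616). With a trend on gene length removed from the fold changes, an alternative that bears on these very long transcripts, both were called as falls, at -0.19 (adjusted p = 0.0450) and -0.74 (adjusted p = 2.75e-05), so their direction rests on how length is treated. Of the 10 subunit genes of the complex, 2 rose and 6 fell, the largest fall being in Kdm6a, the H3K27 demethylase subunit (-0.98, SE 0.10). The call of Ncoa6 was lost without TMM scaling, with transcripts summed, without the 100 most abundant genes and with the length trend removed. That of Rbbp5 was lost without flox1 or without flox2 at day 8.

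The progenitor label of day 8 was checked first. Of 18 genes that mark neural progenitors 17 were tested, and 13 fell, 3 rose and 1 did not pass. Their median was -2.02, and the summed level of the list went from 3358 and 3388 CPM at day 8 to 1500 and 1499 CPM at day 16. Sox3, a SOXB1 factor of neuroepithelium, had 192 and 199 CPM at day 8 and 6.25 and 7.68 CPM at day 16. Both day 16 values lie far below both day 8 values (log2 fold change -4.82, SE 0.13, adjusted p = 1.31e-11). Its relative Sox2 went from 262 and 265 to 60.4 and 66.8 CPM, so a substantial level was left at day 16. Pax6, a regulator of progenitor identity, went from 130 and 127 CPM to 10.5 and 8.13 CPM. Nes, which encodes nestin, went from 534 and 547 CPM to 83.4 and 95.3 CPM. Vimentin (Vim) had the highest level per length in the list, at a deposited RPKM of 366 at day 8 and 134 at day 16. The member that rose most was Fabp7, a fatty acid binding protein of radial glia, at 98.3 and 99.4 CPM and then 330 and 271 CPM (1.60, SE 0.18). Zic1, a factor of dorsal neural tissue, did not pass, at 226 and 228 CPM and then 211 and 225 CPM. Otx2, which marks forebrain and midbrain, was too low to be tested, at an RPKM of 0.0308 and then 0.

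Genes of cell division fell together, and none rose. All 20 replication genes fell, with a median of -2.59 and a summed level of 2452 and 2475 CPM at day 8 against 398 and 422 CPM at day 16. All 20 mitosis genes fell, with a median of -3.55 and a summed level of 3742 and 3748 CPM against 339 and 306 CPM. Among all genes tested 38.7% fell. Rrm2, a subunit of ribonucleotide reductase, fell most among replication genes, from 224 and 228 CPM to 15.4 and 14.9 CPM (-3.90, SE 0.10, adjusted p = 1.42e-11). Pcna, the sliding clamp of DNA polymerase, went from 351 and 358 CPM to 64.2 and 72.0 CPM. Day 16 thus kept part of this message in both libraries. Cenpf, a kinetochore protein, fell most among mitosis genes, from 269 and 270 CPM to 15.8 and 12.8 CPM (-4.23, SE 0.16). Mki67, the proliferation antigen, went from 582 and 583 CPM to 59.9 and 51.3 CPM. Top2a, a topoisomerase that untangles chromosomes, had the highest RPKM of the mitosis list, 107 at day 8 and 7.79 at day 16. In bulk samples fewer cells of a type and less RNA per cell cannot be told apart.

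Promoters of mitosis genes are printed because the list moved as 1 block and its members are known to share 2 sequence elements, the CCAAT box and the cell cycle homology region (CHR). Windows came from RefSeq (build GRCm38.p6) and held the 250 bases before and 50 bases after each start, for 16 of the 20 mitosis genes. The letters CCAAT and TTTGAA were searched on both strands, and the 2 motifs can share at most 1 base. Both were present in 11 of 16 mitosis promoters (68.8%), against 6.95% of all 32851 promoters and 5.05% of those of tested genes. The share was 9.16% for genes at least 2-fold lower and 3.98% for genes at least 2-fold higher at day 16. For replication genes it was 11.8% (2 of 17 promoters). CCAAT, with or without TTTGAA, was in 12 of these 17 (70.6%), against 37.4% of all promoters and 37.8% of those of tested genes. TTCCCGCC, a site of E2F factors, was in 2 of 17 replication promoters (11.8%) and 0% of mitosis promoters. Its share was 2.19% of all promoters and 3.68% of those of tested genes. For genes at least 2-fold lower it was 5.37%, and for those at least 2-fold higher 2.44%. A match is a description of the letters and not a measured site. The 200 bases before the start are shown 5′ to 3′ on the gene's strand, with both motifs and their reverse complements in capitals, for Top2a (chr11:99024190-99024389, minus strand), Cdk1 (chr10:69352913-69353112, minus), Ccnb2 (chr9:70421555-70421754, minus), Ube2c (chr2:164769729-164769928, plus) and Mki67 (chr7:135716380-135716579, minus).
Top2a: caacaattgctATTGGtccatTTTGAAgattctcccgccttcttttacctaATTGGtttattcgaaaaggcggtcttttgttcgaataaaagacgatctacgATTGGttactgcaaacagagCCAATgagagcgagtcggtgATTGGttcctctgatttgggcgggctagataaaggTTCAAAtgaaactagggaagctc
Cdk1: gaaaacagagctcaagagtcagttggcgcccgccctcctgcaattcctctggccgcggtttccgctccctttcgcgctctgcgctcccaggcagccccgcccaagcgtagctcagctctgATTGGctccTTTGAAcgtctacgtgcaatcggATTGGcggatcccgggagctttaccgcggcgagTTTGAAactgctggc
Ccnb2: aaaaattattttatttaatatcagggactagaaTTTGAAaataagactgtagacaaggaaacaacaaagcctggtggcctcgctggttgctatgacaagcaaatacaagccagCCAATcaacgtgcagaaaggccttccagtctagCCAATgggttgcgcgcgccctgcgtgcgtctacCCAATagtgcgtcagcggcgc
Ube2c: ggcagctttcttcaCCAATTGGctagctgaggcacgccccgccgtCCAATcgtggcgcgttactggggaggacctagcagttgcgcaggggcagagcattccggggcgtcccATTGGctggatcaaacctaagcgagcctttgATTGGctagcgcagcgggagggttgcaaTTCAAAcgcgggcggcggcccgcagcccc
Mki67: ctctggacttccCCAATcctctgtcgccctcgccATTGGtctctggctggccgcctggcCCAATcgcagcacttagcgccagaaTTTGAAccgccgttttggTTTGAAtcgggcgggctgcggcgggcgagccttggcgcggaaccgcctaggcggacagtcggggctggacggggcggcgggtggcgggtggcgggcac
The window of Top2a holds CCAAT 5 times, with 3 of the copies at 98, 78 and 58 bases before the start, and TTTGAA at 179 and 23 bases before it. In Cdk1, the kinase that drives entry into mitosis, CCAAT lies at 80 and 48 bases and TTTGAA at 71 and 15 bases before the start. Cdk1 RNA fell from 84.7 and 83.3 CPM to 9.94 and 8.68 CPM (-3.17, SE 0.11). Ccnb2, a cyclin partner of Cdk1, has CCAAT at 87, 54 and 21 bases before the start, and its RNA went from 69.3 and 74.7 CPM to 4.87 and 4.85 CPM. Ube2c, a ubiquitin-conjugating enzyme of mitotic exit, has 5 CCAAT matches and 1 TTTGAA, and its RNA fell 12.3-fold.

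Inhibitors of the cycle did not move as 1 group. Of 15 genes of cell cycle exit and G1 control 4 rose and 10 fell, with a median of -0.62. Cdkn1c, the p57 inhibitor and the most abundant per length in the list, fell from 1034 and 1065 CPM to 246 and 332 CPM (-1.86, SE 0.15). Cdkn2b, the p15 inhibitor, rose most, from 1.45 and 1.62 CPM to 17.8 and 20.5 CPM (3.64, SE 0.19). Cdkn2a and Cdkn1a rose as well, by 1.83 and 1.19 on the log2 scale. Ccnd1, a D-type cyclin of G1, fell most, from 160 CPM in both day 8 libraries to 16.2 and 14.8 CPM. Of 14 p53 target genes 6 rose and 5 fell, shares near those of all genes, with a median of 0.36 (0.17 without flox1 at day 16). The calls of 4 that fell, Bax, Ccng1, Trp53inp1 and Zmat3, were lost without flox1 or without flox2 at day 8. Fas, a death receptor gene, rose by 2.06 and Mdm2, the negative regulator of p53, fell by 0.62.

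The LIN28 network, RNA-binding proteins that keep let-7 microRNAs low in early cells together with genes repressed by let-7, fell in all 10 members (median -2.57). Lin28a had 27.3 and 26.4 CPM at day 8 and 0.386 and 0.375 CPM at day 16. The groups are far apart (-6.13, SE 0.16, adjusted p = 1.38e-11). Its paralogue Lin28b fell by 0.83 only, from 40.4 and 38.3 CPM to 24.9 and 19.4 CPM. Hmga2, a chromatin protein, fell 15.6-fold and Igf2bp1, an RNA-binding protein, 16.2-fold. Single flox libraries of stem cells and of day 4 aggregates, with 18.9 and 19.6 M reads, were set beside these values with no replicate. Their titles name neither flox1, flox2 nor the neural differentiation, so day and experiment cannot be told apart. Lin28a was at 428 CPM in stem cells and 677 CPM at day 4, and Hmga2 at 11.4 and 301 CPM. On a linear scale Lin28a differed more between these libraries and day 8 than between day 8 and day 16. Pou5f1, the OCT4 gene, was at 1702 CPM in stem cells, 549 CPM at day 4, 0.637 and 0.520 CPM at day 8, and 1 read in both day 16 libraries together. The read ratio of day 8 to day 16 was 55.6 (95% counting interval 9.59 to 2234). Zfp42 (REX1) had 0 reads at day 16, a fall of at least 9.43-fold. Esrrb and Tfcp2l1, listed as pluripotency factors and also expressed outside stem cells, rose 5.35-fold and 5.48-fold, to at most 18.2 and 20.1 CPM. Of 15 pluripotency genes 9 were tested, with 3 higher and 5 lower.

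**Figure D2:**
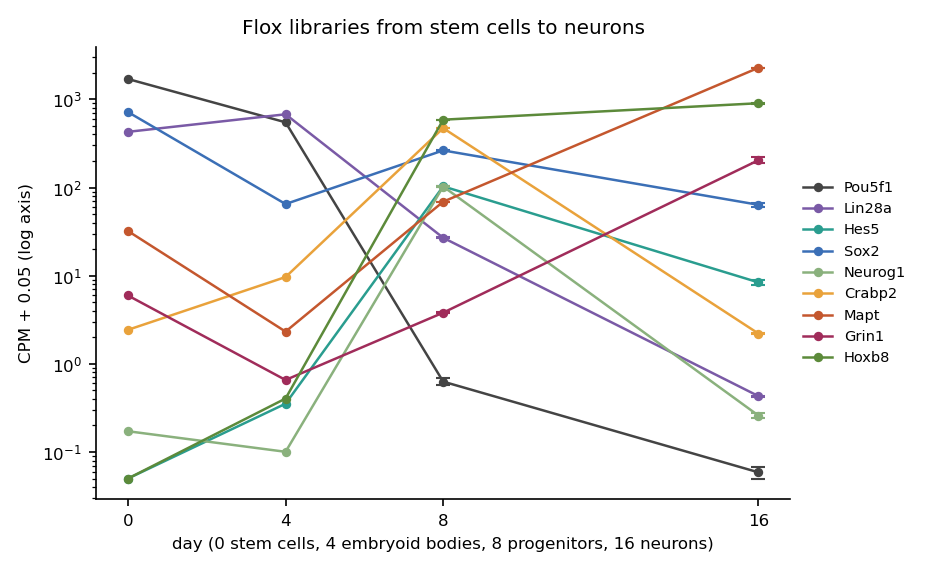
CPM (log axis, 0.05 added) of 9 genes at days 0, 4, 8 and 16 in flox cells, with 1 library at days 0 and 4 and 2 libraries (dashes) at days 8 and 16, and lines through the means. Hes5, Neurog1 and Crabp2 are highest at day 8, Pou5f1 is lower at each later day, and Mapt and Grin1 are highest at day 16. Titles of the day 0 and day 4 libraries do not name the neural differentiation, so the lines may join separate experiments.

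Notch pathway genes fell in 17 of 20 cases (median -1.13), against 38.7% of all genes. Hes5, a transcriptional target that represses proneural genes, had 102 and 104 CPM at day 8 and 7.89 and 8.80 CPM at day 16 (-3.63, SE 0.14, adjusted p = 2.21e-10). It was at 0 CPM in stem cells and 0.303 CPM at day 4, so its level was highest in the day 8 libraries. Nrarp, a feedback inhibitor of Notch, fell 11.2-fold. The ligand genes Dll1 and Dll3 fell 4.95-fold and 8.36-fold, and the sugar transferase gene Mfng, which modifies the receptors, 8.30-fold. Receptors split: Notch1 and Notch3 fell by 1.05 and 1.33, whereas Notch2 went from 98.4 and 96.6 CPM to 187 and 215 CPM (1.04, SE 0.11). The other members that rose were Jag2, a ligand (0.95), and Hey2, a target (0.76, at most 3.08 CPM).

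Proneural and neuronal bHLH factors, listed with the zinc finger factors that accompany them, went both ways. Of 19 tested 12 fell and 6 rose, with a median of -2.16. Neurog1 had 102 and 103 CPM at day 8 and 0.193 and 0.225 CPM at day 16. This was the deepest fall in the list (-8.94, SE 0.19, adjusted p = 5.53e-12), and its RPKM of 42.1 at day 8 was also the highest. Neurog1 was at 0.122 and 0.0505 CPM in stem cells and day 4 aggregates. Neurog2 fell from 35.5 and 37.6 CPM to 0.720 and 0.775 CPM, and Ptf1a, which directs inhibitory neurons of the dorsal cord, from 17.9 and 18.0 CPM to 0.193 and 0.325 CPM. Nhlh1 and Neurod4, which act after the neurogenins, fell 20.1-fold and 14.7-fold. Neurod6 had 0 reads at day 8 and 3.83 and 3.10 CPM at day 16, at least 117-fold higher. Myt1l, a repressor of non-neuronal genes, rose from 20.2 and 21.1 CPM to 237 and 235 CPM (3.51, SE 0.11). Ebf3, Ebf1, Bhlhe22 and Neurod2 were the other members that rose.

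Factors that pattern the neural tube from dorsal to ventral fell in 12 of 19 cases and rose in 4. The median was -2.25, or -2.22 with genes at 0 reads set to their bound. Irx3, broadly expressed in the cord, had the highest RPKM (64.9 at day 8) and fell from 221 and 229 CPM to 16.4 and 18.1 CPM. Among dorsal factors Olig3 went from 38.6 and 39.3 CPM to 0.141 and 0.175 CPM (-7.95, SE 0.39). Pax7 went from 48.3 and 48.2 CPM to 0.263 and 0.225 CPM (-7.59, SE 0.22). The dorsal factors Pax3 and Msx1 fell 9.54-fold and 14.2-fold, and Dbx1, of the intermediate zone, 87.8-fold. Ventral markers were low at both days, with Shh at 3.41 and 3.34 and then 3.14 and 3.48 CPM, and Foxa2 at 3.63 and 3.92 and then 0.141 and 0.100 CPM. The members that rose were Olig1 (0.769 and 0.780 CPM to 6.41 and 7.90 CPM), Olig2, Gsx1 and Gdf7, none of them above 12.4 CPM.

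Transcription factors of neuron subtypes went both ways, with 6 of 24 tested higher and 11 lower (median -0.26). The median was -0.17 over members with at least 1 CPM in 2 libraries. It was -0.38 without flox1 at day 16 and -0.20 without flox2 at day 16. Lhx1 and Lhx5, LIM factors of early interneurons, fell by 0.91 and 3.05, Lhx1 keeping 85.7 and 96.2 CPM. Pou4f1, a POU factor of sensory and dorsal neurons, rose from 8.15 and 8.75 CPM to 43.6 and 55.0 CPM (2.54, SE 0.14). Tlx3, which selects the glutamatergic fate in the dorsal horn, rose 4.93-fold, and Pax2, found in inhibitory interneurons, 2.15-fold, to 104 and 116 CPM. Tlx1 rose too, but from 2 reads in all at day 8 (read ratio 9.23, 95% counting interval 2.21 to 82.0). En1, which marks V1 interneurons, rose to 6.48 and 7.15 CPM. Motor neuron factors were low at both days: Mnx1 had 5.01 and 4.12 and then 4.23 and 5.05 CPM, Isl1 fell to 0.738 and 0.925 CPM and Lhx3 to 0.228 and 0.375 CPM.

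Genes of retinoic acid handling fell in 12 of 19 cases and rose in 4 (median -0.90). The summed level of the list went from 3523 and 3538 CPM to 679 and 717 CPM. Crabp2, which delivers retinoic acid to its receptors, had 470 and 473 CPM at day 8 and 2.18 and 2.13 CPM at day 16 (-7.77, SE 0.17). The degrading enzyme Cyp26a1 went from 276 and 282 CPM to 2.79 and 2.98 CPM, and it was already at 228 CPM in the day 4 library. Cyp26b1, of the same enzyme family, was the member with the most reads at day 8 (1037 and 1023 CPM) and fell 9.30-fold. The receptor genes Rara and Rarb fell 5.34-fold and 3.11-fold, while Rarg differed by -0.19 (adjusted p = 0.127). Stra8, a retinoic acid response gene known from germ cells, fell most, from 18.3 and 17.3 CPM to 0.0527 and 0.0750 CPM. Aldh1a3, which makes retinoic acid, rose to 1.33 and 1.15 CPM, and Aldh1a2 from 34.9 and 32.0 CPM to 51.9 and 49.4 CPM.

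Hox genes, which in each cluster are numbered from the anterior-acting to the posterior-acting end, are given by position. Of paralogue groups 1 to 4, 11 of 12 genes fell and 1 did not pass, a median of -2.09. Of groups 5 to 8, 7 of 11 rose, 2 fell and 2 did not pass, a median of 0.31. Of groups 9 to 13, 8 of 16 genes were tested, with 2 higher, 1 lower and 5 not called. Summed levels show the shift: groups 1 to 4 went from 2323 and 2325 CPM to 862 and 839 CPM, and groups 5 to 8 from 1448 and 1437 CPM to 1829 and 1821 CPM. Groups 9 to 13 stood at 886 and 871 CPM and then 829 and 716 CPM, nearly all of it Hoxb9. Hoxb1, of rhombomere 4 and early hindbrain, had 21.9 and 22.6 CPM at day 8 and 0.0351 and 0.125 CPM at day 16 (-8.21, SE 0.28), after 26.3 CPM at day 4. Hoxb8, the most abundant Hox gene per length at day 16 (RPKM 261), rose from 590 and 586 CPM to 911 and 896 CPM (0.62, SE 0.12). Hoxc8 and Hoxc6 rose by 2.73 and 1.98. Hoxc11, Hoxc12 and Hoxd12 had 0 reads in all 4 libraries. Transcripts within a Hox cluster overlap and strand is not known to be kept, so single Hox values are uncertain. The calls of Hoxb7, Hoxc10, Hoxd8 and Hoxd9 did not survive leaving out 1 library.

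**Figure D3:**
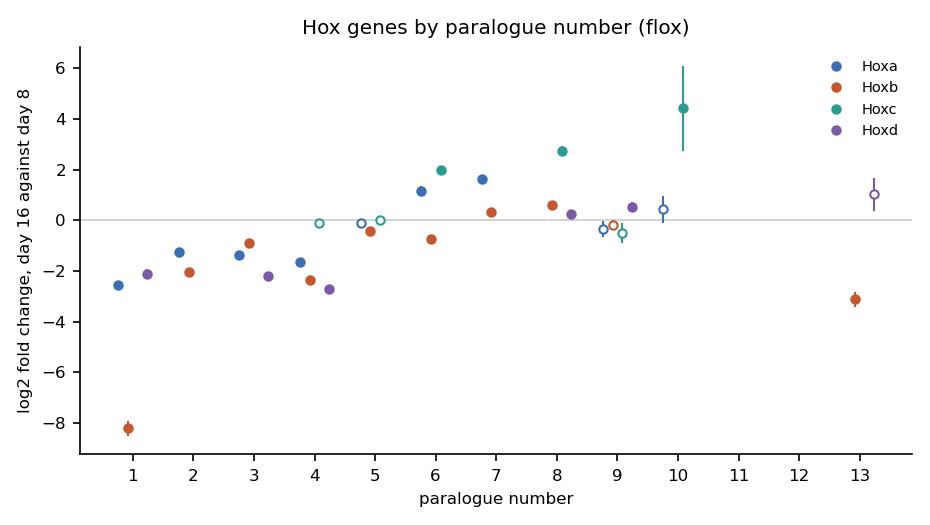
Log2 fold change from day 8 to day 16 of the tested Hox genes by paralogue number, 1 colour per cluster, with standard errors and open symbols for genes not called. Points of groups 1 to 4 lie at or below 0 (median -2.09) and those of groups 5 to 8 mostly above it (median 0.31).

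Neuronal structural genes rose. Of 19 cytoskeleton genes 17 rose, 1 fell and 1 did not pass (median 1.70), and their summed level went from 4687 and 4693 CPM to 15598 and 16019 CPM. Among all genes 38.4% rose. Mapt, which encodes the microtubule protein tau, had 69.2 and 68.8 CPM at day 8 and 2267 and 2295 CPM at day 16 (5.05, SE 0.11, adjusted p = 5.53e-12). Tubb3, neuronal tubulin and the highest of the list per length (RPKM 216 and then 356), was already abundant at day 8 and rose by 0.56 only, from 542 and 548 CPM to 729 and 879 CPM. Dcx, of migrating neurons, rose 2.40-fold and Gap43, of growth cones, 5.72-fold. The kinesin genes Kif1a and Kif5a rose 9.43-fold and 8.21-fold. Neurofilament genes did not move together. Nefl had 454 and 477 and then 436 and 551 CPM (0.08, adjusted p = 0.524). Nefm was the list's only fall, from 86.6 and 88.1 CPM to 22.4 and 25.8 CPM (-1.86, SE 0.11). Nefh rose to 13.2 and 12.4 CPM.

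All 19 tested genes of synaptic vesicles and release rose, with a median of 3.40 and a summed level of 687 and 690 CPM at day 8 against 5254 and 5437 CPM at day 16. Vamp2, the vesicle SNARE, had the highest RPKM (171 at day 16) and went from 59.5 and 58.6 CPM to 501 and 472 CPM. Syn2, a synapsin, rose most, from 1.16 and 1.11 CPM to 118 and 116 CPM (6.68, SE 0.12, adjusted p = 5.31e-12). The active zone gene Rims1 rose 42.0-fold, the complexin gene Cplx1 34.0-fold and Syt1, the calcium sensor of release, 12.2-fold. Of 17 postsynaptic scaffold and adhesion genes 16 rose (median 3.15). Nrxn2, a presynaptic adhesion receptor on this list, was highest per length (RPKM 99.2). Lrrtm2, a postsynaptic adhesion protein, went from 1.21 and 1.34 CPM to 37.6 and 26.8 CPM (4.66, SE 0.20). Dlg4, which encodes PSD-95, rose 4.66-fold and the GABA synapse scaffold Gphn 2.78-fold. Homer1 did not pass, at 37.8 and 37.1 and then 41.0 and 35.2 CPM. Camk2a, abundant in mature forebrain synapses, reached 12.0 and 11.9 CPM only, while Camk2b reached 192 and 211 CPM.

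**Figure D4:**
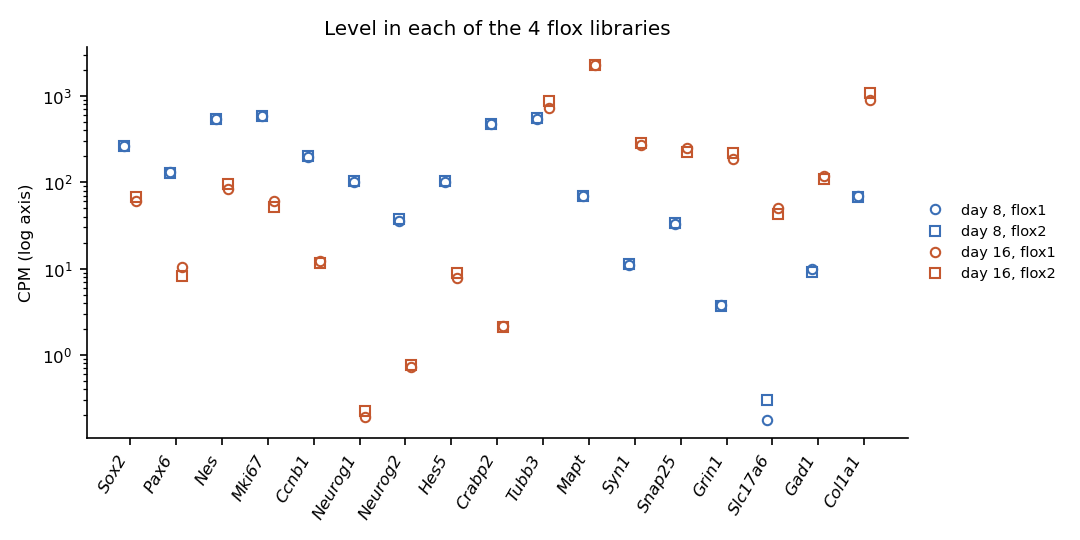
CPM on a log axis of 17 genes in the 4 flox libraries (circle flox1, square flox2; 1 colour per day). Within each gene the 2 libraries of a day lie close together, and for Neurog1 and Crabp2 the days are separated by more than 100-fold.

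Receptor genes of the main transmitters mostly rose. Of 22 glutamate receptor genes 20 rose, with a median of 4.39, which was 4.44 between the flox1 libraries and 4.41 between the flox2 libraries. Of 17 GABA and glycine receptor genes 16 rose, with a median of 4.67, and here the pairs gave 4.75 and 3.74. Grin1, the obligate NMDA subunit, had 3.78 and 3.73 CPM at day 8 and 188 and 220 CPM at day 16 (5.76, SE 0.13). Grin2b, its partner in young neurons, went from 0.989 and 0.984 CPM to 106 and 111 CPM (6.78, SE 0.12). Grin2a, which prevails later in maturation, reached 10.8 and 12.1 CPM. Per length this was an RPKM of 1.94 against 11.0 for Grin2b. The AMPA subunit genes Gria1 and Gria2 rose 25.9-fold and 7.36-fold. Among the metabotropic receptors Grm5 rose most, from 0.330 and 0.297 CPM to 172 and 147 CPM. The kainate subunit Grik5 was highest per length (RPKM 46.3) and rose 1.89-fold. The falls were Grm2, from 60.3 and 58.0 CPM to 7.43 and 8.83 CPM (-2.87, SE 0.12), and Grin2c (-0.89), which had at most 2.46 CPM. Gabbr2, a subunit of the GABA-B receptor, rose from 1.54 and 1.49 CPM to 87.4 and 108 CPM (6.01, SE 0.15), while its partner Gabbr1 was at 98.5 and 99.9 CPM at day 8 already and rose 5.15-fold. Of the glycine receptor genes Glra1 fell from 24.6 and 25.5 CPM to 5.74 and 7.05 CPM (-1.98, SE 0.17), whereas Glra2 rose from 0.923 and 0.724 CPM to 52.0 and 39.3 CPM.

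All 21 tested voltage-gated channel genes rose, with a median of 3.79. Scn3b, a sodium channel beta subunit, was highest per length (RPKM 35.5) and went from 8.77 and 8.41 CPM to 211 and 185 CPM. Scn2a, the axonal sodium channel of young neurons, went from 8.64 and 8.45 CPM to 171 and 151 CPM (4.24, SE 0.13). The potassium channel Kcna4 rose most, from 0.0440 and 0.0743 CPM to 10.1 and 7.93 CPM (7.17, SE 0.29). Cacna1e, an R-type calcium channel, rose 64.6-fold, against 5.72-fold for the P/Q-type Cacna1a.

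Transmitter genes went both ways. Of 14 tested, 6 rose and 5 fell (median -0.18, -0.02 without flox1 at day 16, or 2.33 over members with at least 1 CPM in 2 libraries), and the 6 that rose belong to glutamate, GABA and glycine. Slc17a6, the vesicular glutamate transporter VGLUT2, had 0.176 and 0.297 CPM at day 8 and 49.8 and 43.4 CPM at day 16 (7.58, SE 0.18, adjusted p = 7.71e-12). Its relatives Slc17a7 and Slc17a8, VGLUT1 and VGLUT3, fell by 1.10 and 2.05, from levels of at most 1.08 CPM. The call of Slc17a7 was lost with DESeq2, without flox2 at day 8 and without flox1 at day 16. Slc32a1, the vesicular transporter of GABA and glycine, was highest per length (RPKM 35.5) and went from 25.6 and 26.6 CPM to 111 and 150 CPM. Gad1 and Gad2, which make GABA, rose 12.1-fold and 5.49-fold, and the glycine transporter Slc6a5 9.91-fold, to 45.3 and 45.9 CPM. Th, the enzyme that starts catecholamine synthesis, fell from 6.13 and 6.02 CPM to 0.0703 and 0.100 CPM (-6.16, SE 0.30). The cholinergic genes Chat and Slc18a3 did not pass, at 0.123 and 0.175 CPM and 2.25 and 2.40 CPM at day 16. Slc5a7, Dbh, Slc6a3, Tph2 and Fev were too low to be tested.

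Of 19 neuropeptide and granin genes 13 rose and 3 fell (median 3.90, or 3.52 with genes at 0 reads set to their bound). Chga, chromogranin A, was highest per length at day 16 (RPKM 66.0) and went from 14.0 and 14.4 CPM to 151 and 174 CPM. Scg2, secretogranin II, rose most, from 1.30 and 1.08 CPM to 78.7 and 67.1 CPM (5.95, SE 0.14, adjusted p = 8.89e-12). Vgf, another secretory granule gene, rose 33.0-fold. The opioid gene Penk rose 52.3-fold, to 35.3 and 35.4 CPM, Tac1 53.9-fold and Pnoc 32.1-fold. Cartpt fell from 10.8 and 10.6 CPM to 1.69 and 1.68 CPM (-2.67, SE 0.17). Sst and Adcyap1 fell too, by 0.35 and 1.43, but lost the call with 1 library left out.

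Promoters of 3 neuronal genes are printed to show 2 sequence elements known in such genes, the cyclic AMP response element (CRE, TGACGTCA) and RE1, the element bound by the repressor REST. CRE was in 4 of 17 neuropeptide and granin promoters (23.5%) and 12 of 196 promoters of the neuronal lists together (6.12%), against 1.79% of all promoters and 2.83% of those of tested genes, both strands searched in the 300-base windows of 140 of 199 neuronal genes. Genes with a CRE moved both ways: the share was 1.88% for genes at least 2-fold higher at day 16 and 3.38% for genes at least 2-fold lower. CAGCTG, an E-box of proneural bHLH factors, was in 21.4% of the neuronal promoters and 16.3% of all. RE1 was in 1 of 196 and in 11 of all 32851, and RE1 elements are known to lie also outside such windows. The promoters are those of Scg2 (chr1:79440027-79440226, minus strand), Chgb (chr2:132781442-132781641, plus) and Gria2 (chr3:80802836-80803035, minus), 200 bases before the start from RefSeq, build GRCm38.p6, with the CRE or RE1 in capitals.
Scg2: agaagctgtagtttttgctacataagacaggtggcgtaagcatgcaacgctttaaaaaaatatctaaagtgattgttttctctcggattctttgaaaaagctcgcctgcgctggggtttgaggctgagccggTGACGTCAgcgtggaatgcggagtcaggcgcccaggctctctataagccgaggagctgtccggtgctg
Chgb: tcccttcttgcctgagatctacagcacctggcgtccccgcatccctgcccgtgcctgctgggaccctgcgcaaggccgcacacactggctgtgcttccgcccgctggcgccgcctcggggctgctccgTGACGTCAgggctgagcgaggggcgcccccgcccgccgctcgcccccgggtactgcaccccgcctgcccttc
Gria2: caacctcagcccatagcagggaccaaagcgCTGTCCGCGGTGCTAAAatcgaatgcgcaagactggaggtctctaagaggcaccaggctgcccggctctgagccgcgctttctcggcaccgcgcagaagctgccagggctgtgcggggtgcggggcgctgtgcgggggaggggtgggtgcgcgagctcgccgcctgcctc
The CRE begins 68 bases before the start in Scg2 and 72 bases before it in Chgb, whose RNA rose from 39.2 and 40.4 CPM to 181 and 188 CPM. The other neuropeptide genes with a CRE before the start, Cartpt and Sst, fell. Elsewhere in the neuronal lists it lay in the 200 bases before the start in Th, which fell. It lay there also in Syn1 and Kif5c, which rose by 4.63 and 1.43, and in 3 overlapping windows of Celf3. Celf3 did not pass (-0.11), and its 3 windows are 3 of the 12, since the shares count windows and not genes. The RE1 of Gria2 begins 170 bases before the start, and its RNA rose from 20.7 and 22.5 CPM to 176 and 141 CPM.

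Genes of REST and its corepressors fell in 8 of 10 cases and rose in 1 (median -0.66). Rest itself had 35.2 and 36.5 CPM at day 8 and 21.9 and 21.7 CPM at day 16, a modest fall (-0.72, SE 0.09). Its day 8 and day 16 libraries did not overlap, as was so for 90.3% of genes tested. Rcor2, a corepressor of progenitors, fell 7.02-fold and its relative Rcor3 rose 2.01-fold. Subunits of the BAF chromatin remodelling complex, known to be exchanged when progenitors become neurons, went in opposite directions within pairs (8 of 16 higher, 6 lower, median 0.49). Actl6a (BAF53A) fell from 128 and 127 CPM to 21.6 and 20.7 CPM (-2.59, SE 0.09). Actl6b (BAF53B) rose from 11.2 and 11.4 CPM to 94.8 and 108 CPM (3.16, SE 0.14). In the other pairs Ss18 fell 2.82-fold and Ss18l1 (CREST) rose 4.44-fold, and Smarcc1 fell 2.82-fold while Smarcc2 rose 2.00-fold. Dpf2 fell 1.91-fold and Dpf1 rose 3.30-fold, whereas Phf10, the progenitor subunit BAF45A, differed by -0.03 (SE 0.37).

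Of 18 genes of neuronal RNA-binding proteins 14 rose and 2 fell (median 1.06), the falls being Ptbp1, a splicing repressor of non-neuronal cells, and Ptbp2, its neuronal relative, known to decline later. Ptbp1 went from 448 and 445 CPM to 131 and 154 CPM (-1.65, SE 0.12) and Ptbp2 from 231 and 225 CPM to 137 and 98.4 CPM (-0.95, SE 0.13). Rbfox1, a splicing factor of mature neurons, rose most, from 22.7 and 21.9 CPM to 306 and 269 CPM (3.69, SE 0.13). Rbfox3, which encodes the neuronal nuclear antigen NeuN, rose 10.1-fold. Elavl3 was highest per length at day 16 (RPKM 110) and rose 2.95-fold. Of 15 genes of DNA methylation 6 rose and 8 fell (median -0.34). With the length trend removed Tet3 was called in the opposite direction, and Dnmt3a and Tet1 lost their calls. Uhrf1, which guides maintenance methylation after replication, fell 10.4-fold, and Dnmt1, the maintenance methyltransferase, 2.42-fold.

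Axon guidance genes were mixed, with 16 of 24 higher and 7 lower (median 0.66, or 0.43 with the length trend removed). Robo3, which lets commissural axons cross the midline, fell from 281 and 284 CPM to 5.23 and 5.18 CPM (-5.76, SE 0.14, adjusted p = 8.89e-12). Its relative Robo2 rose from 15.1 and 16.5 CPM to 297 and 259 CPM (4.14, SE 0.11). Cntn2 (TAG-1), also of early commissural axons, fell 5.09-fold and the ephrin receptor gene Epha3 15.8-fold. The cell adhesion gene L1cam was highest per length (RPKM 68.6) and rose 10.5-fold. Plxna4, a semaphorin receptor, rose most, from 6.81 and 7.37 CPM to 260 and 271 CPM (5.23, SE 0.11).

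Genes that respond to activity rose in 12 of 14 cases (median 1.70) and 2 did not pass. Npas4, a factor induced by calcium entry in neurons, had 0.549 and 0.520 CPM at day 8 and 6.50 and 6.75 CPM at day 16 (3.63, SE 0.20). Egr1 rose from 26.6 and 27.8 CPM to 115 and 117 CPM, and Jun, highest per length (RPKM 43.7), by 0.67 only. Handling of cells at harvest can also induce such genes, and its part was not tested.

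Of 19 glycolysis genes 6 rose and 7 fell, shares near those of all genes, and their summed level went from 13858 and 13889 CPM to 10094 and 11028 CPM. The median was -0.08, with -0.01 without flox1 at day 16, -0.14 without flox2 at day 16 and 0.18 with the 100 most abundant genes left out of the scaling and test. The neuronal or brain isoforms Hk1, Pfkp, Eno2 and Aldoc rose 6.26-fold, 4.82-fold, 7.70-fold and 21.5-fold. Slc2a1, the GLUT1 glucose transporter, fell from 1202 and 1204 CPM to 84.6 and 103 CPM (-3.68, SE 0.15). Eno1, the most abundant per length (RPKM 961 and then 778), fell 1.38-fold, a call lost without flox1 at day 16, and Slc2a3, the neuronal transporter GLUT3, did not pass (-0.16, adjusted p = 0.518). Of 14 cholesterol synthesis genes 4 rose and 1 fell, with a median of 0.08 (0.13 without flox1 at day 16). Of these 5 calls 3 were lost without flox1 at day 8 and without flox1 or flox2 at day 16, and 2 without flox2 at day 8. Fdps, the highest of these per length, had 153 and 151 and then 132 and 134 CPM (-0.19, adjusted p = 0.442).

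Markers of glia and of cells outside the neural lineage also moved. Of 17 tested astrocyte and radial glia genes 14 rose and 3 fell (median 1.83), and the summed level went from 680 and 678 CPM to 1632 and 1623 CPM. Gfap, the astrocyte intermediate filament, had 1 read over both day 8 libraries and 2030 reads over both day 16 libraries, or 19.2 and 23.4 CPM (read ratio 2081, 95% counting interval 373 to 82231). Aldh1l1, a folate enzyme of astrocytes, rose from 0.769 and 0.854 CPM to 73.3 and 82.1 CPM (6.57, SE 0.15). The water channel Aqp4 reached 0.509 and 0.475 CPM only and S100b was too low to be tested. Gja1, the gap junction gene of astrocytes and radial glia, fell 4.71-fold, Id3, the most abundant of the list per length at day 8 (RPKM 140), fell 2.64-fold, and Gjb6 fell from at most 0.549 CPM. Of 9 tested oligodendrocyte genes 4 rose, and Opalin had 0 reads in all 4 libraries. Sox10, which defines that lineage and neural crest glia, was at 0.418 and 0.297 and then 0.176 and 0.200 CPM. Of 12 neural crest genes 8 fell and none rose (median -1.15; summed level 385 and 379 CPM, then 179 and 175 CPM).

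The 14 mesenchyme and fibroblast genes all rose (median 3.55), against 38.4% of all genes, and 9 did so by at least 2-fold. The calls of Acta2 and Tagln, genes of contractile cells, were lost without flox1 at day 8, and that of Tagln also without flox2 at day 8 or day 16. The list's summed level went from 527 and 532 CPM to 4837 and 5111 CPM. At day 16 its members stood close to the summed level of the 19 vesicle genes. Col3a1, a fibrillar collagen, went from 153 and 154 CPM to 2083 and 2156 CPM (3.79, SE 0.17) and was highest per length (RPKM 291). Dcn, the proteoglycan decorin, rose most, from 0.791 and 1.11 CPM to 233 and 183 CPM (7.75, SE 0.36). Thy1, on fibroblasts and also on neurons, rose 64.9-fold. Day 16 libraries thus hold more RNA of connective tissue genes than day 8 libraries, beside more neuronal RNA. The part of such cells in the neuronal and glial values was not tested.

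Endothelial genes fell in 10 of 12 cases (median -4.15), from a summed 171 and 172 CPM to 71.7 and 71.8 CPM, most of which at day 16 was Kdr (43.5 and 41.9 CPM). Tie1, a receptor of endothelium, had 17.1 and 17.9 CPM at day 8 and 0.0527 and 0 CPM at day 16 (read ratio 567, 95% counting interval 194 to 2751). Plvap was the only rise, to 19.1 and 21.3 CPM. Of 8 tested erythroid genes 6 fell (median -4.0, or -6.88 over members with at least 1 CPM in 2 libraries). The call of Hba-a1 was lost with no low count filter and with the length trend removed. The embryonic globins Hbb-y and Hbb-bh1 were at 0 reads at day 16, at least 156-fold and 70.2-fold lower. Extraembryonic endoderm genes fell in 12 of 19 cases and rose in 4 (median -2.16, or -1.44 with at least 1 CPM in 2 libraries). Sox17 fell from 12.8 and 14.0 CPM to 0.105 and 0.0250 CPM (-7.49, SE 0.29), and Apob, a liver and yolk sac lipoprotein, to 1 read. The list's summed level was nonetheless higher at day 16, going from 781 and 782 to 926 and 987 CPM, through basement membrane genes that other cells share, such as Lamb1 (78.5 and 76.4 CPM, then 269 and 287 CPM). Mesothelium and acute phase genes were split, with 7 of 13 higher and 4 lower. Keratin Krt8 fell 24.8-fold and the acute phase gene Saa3 rose from 0.835 and 0.817 CPM to 61.9 CPM in both libraries (6.22, SE 0.19). Cardiac muscle genes summed to 12.0 and 11.4 CPM and then 7.52 and 9.80 CPM. All 13 leukocyte and microglia genes in the tables were too low to be tested, at 0.464 to 0.600 CPM in sum, and C1qa had 0 reads in all 4 libraries. For each of these lists the part in the other results was not tested.

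Over all genes with at least 10 CPM at the higher day, the 12 largest rises were Gfap, Grm5, Slc6a11, Oprm1, Slc4a10, Htr2c, Grm7, Vstm2a, Htr7, Dcn, Frmpd4 and Agtr2, the least of them at 7.64 on the log2 scale. Most encode receptors or transporters. Slc6a11, the GABA transporter GAT3, went from 0.374 and 0.241 CPM to 129 and 132 CPM (8.74, SE 0.18). Oprm1, the mu opioid receptor, went from 3 reads over both libraries to 10.0 and 11.2 CPM (read ratio 349, 95% counting interval 119 to 1694). The serotonin receptor genes Htr2c and Htr7 reached 24.4 and 19.2 CPM and 20.1 and 20.2 CPM. Slc4a10, a bicarbonate transporter of neurons, rose 323-fold. The 12 largest falls were Hk3, Tie1, Cldn5, Neurog1, Tmprss2, Hoxb1, Stra8, Cd93, Olig3, Cldn4, Crabp2 and Pax7. Hk3, a hexokinase known from blood cells, went from 20.6 and 22.3 CPM to 0 and 0.0750 CPM. Besides the endothelial genes Tie1, Cldn5 and Cd93, epithelial genes were among them, with Cldn4, a tight junction protein, at 27.2 and 28.7 CPM and then 0.123 and 0.100 CPM.

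The same step in KI cells was used to see where the flox course differed. Both share the fit but no libraries, and the comparison is of 1 day effect with the other. The day effect differed in 33.2% of all genes, with the flox effect the higher in 42.2% of those called. With library totals in place of TMM scaling that share was 62.4% and the median difference shifted by 0.17, so the overall split rests on the scaling. Without flox2 at day 8 the number of genes called was 3621 in place of 5450. Of the genes called at both genotypes 10919 changed in the same direction and 310 in opposite directions. Most lists kept their direction. The median of the glutamate receptor list was 4.39 in flox and 5.35 in KI, of the mitosis list -3.55 and -4.30, and of Hox groups 1 to 4 -2.09 and -2.04. For Hox groups 5 to 8 it was 0.31 and 0.07, and for groups 9 to 13 it had opposite signs, 0.12 and -0.93.

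**Figure D5:**
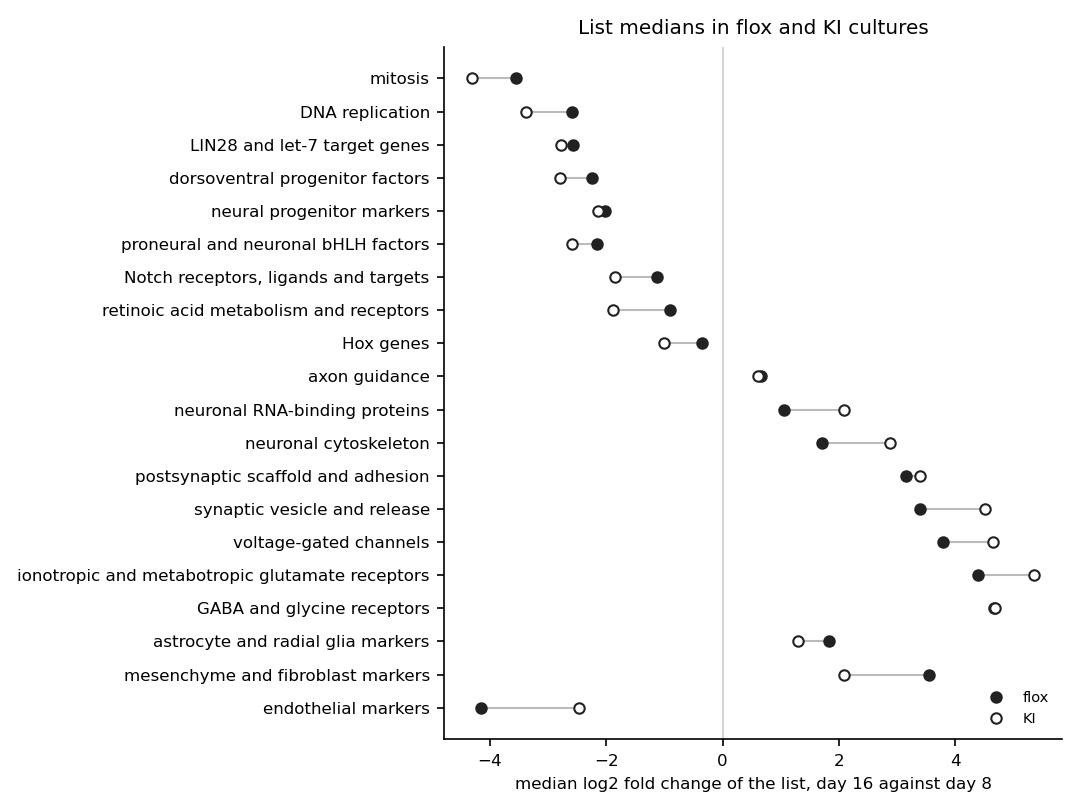
Median log2 fold change from day 8 to day 16 of 20 gene lists in flox cells (filled) and in KI cells (open). For the cytoskeleton, vesicle, replication and mitosis lists the flox median lies nearer to 0 than the KI median, and for the mesenchyme and endothelial lists it lies farther from 0.

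Cytoskeleton, vesicle and glutamate receptor genes mostly had the lower effect in flox. The flox effect was the lower in all 18 cytoskeleton genes whose difference was called, of 19 tested, and in 16 of 17 vesicle genes (Sv2b was the exception). The list medians were 1.70 against 2.87 and 3.40 against 4.51. Of the glutamate receptor genes 13 were lower and 1, Grik3, higher. Grik3 rose by 3.74 in flox and 2.48 in KI. Gene by gene, the median of flox minus KI was -1.31 for the cytoskeleton, -1.0 for vesicles and -0.89 for glutamate receptors. It was also negative for the other neuronal lists. It was -0.97 for postsynaptic genes (12 called, all 12 lower in flox) and -0.71 for voltage-gated channels (13 of 15 called lower). For GABA and glycine receptors it was -1.0, although the list medians of 4.67 and 4.68 hardly differ, and all 8 called genes were lower in flox (5 of 5 without KI day 8 clone 48). For neuropeptides it was -0.75 (-0.48 without flox1 at day 16), against list medians of 3.90 in flox and 3.20 in KI that lie in the other order, with 6 of 8 called lower. RNA-binding proteins stood at -0.61 (12 of 13 lower) and axon guidance genes at -0.41 (12 of 15 lower), or -0.24 with library totals as the scaling. Transmitter genes, at -0.25 with 3 of 6 lower, stood at -0.08 with library totals or without KI day 8 clone 48 and at -0.15 without flox1 at day 16. Snap25, a SNARE of release, rose by 2.81 in flox and 4.88 in KI (adjusted p of the difference 1.03e-06). Stmn4, a tubulin-binding protein, rose by 3.51 and 5.76 (adjusted p 1.61e-06). Division genes fell less in flox, with 18 of 20 mitosis genes and 15 of 20 replication genes called and the flox effect the higher in each. Top2a fell by 3.93 in flox and 4.84 in KI. With library totals as the scaling, the called genes lower in flox were 17 of 17 for the cytoskeleton and 15 of 16 for vesicles, and those higher in flox were 20 of 20 for mitosis and 17 of 17 for replication.

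Metabolic and regulatory lists differed as well. Cholesterol synthesis stood near 0 in flox (median 0.08) and rose in KI (1.42), with 11 of 14 genes called and all 11 lower in flox. Fdps differed by -0.19 in flox and rose by 1.89 in KI (adjusted p of the difference 0.0013). In the glycolysis list 12 of 17 called genes had the higher effect in flox, where Ldha fell by 0.55 (a call lost without flox1 at day 16) against 2.16 in KI. Without the 100 most abundant genes 6 of 11 called were higher and 5 lower, and the median difference of the list was 0.01 in place of 0.77. Of the retinoic acid genes 10 of 12 called were higher in flox. Aldh1a2 rose by 0.60 in flox and fell by 1.11 in KI. Single regulators moved in opposite directions: Gsx1, of dorsal interneuron progenitors, rose by 1.48 in flox and fell by 2.80 in KI (adjusted p 9.49e-08). Olig2, of ventral progenitors and the oligodendrocyte lineage, rose by 2.09 in flox and fell by 0.40 in KI (adjusted p of the difference 2.03e-05). The glycine receptor gene Glra1 fell by 1.98 in flox and rose by 1.16 in KI, and Cdkn2a rose by 1.83 in flox and fell by 0.83 in KI.

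Several non-neural lists differed between the genotypes. In the mesothelium list all 10 called genes of 13 had the higher effect in flox, with medians of 0.56 and -2.12. Krt19, a keratin, went from 28.6 and 30.5 CPM to 13.0 and 17.1 CPM in flox and from 20.1 and 30.4 CPM to 0.143 and 0.171 CPM in KI (difference 6.32, SE 0.38, adjusted p = 9.38e-07). The mesenchyme list had medians of 3.55 and 2.08 and a median gene difference of 0.69, and 7 of its 8 called genes were higher in flox. The count was 4, all 4 higher in flox, without flox1 or without flox2 at day 8 and with these 2 summed as 1 sample. It was 5 without flox1 at day 16 or without KI day 8 clone 27. Col6a1, a collagen, rose from 15.1 and 16.3 CPM to 376 and 428 CPM in flox, a log2 effect of 4.68 against 0.72 in KI (adjusted p 4.75e-07). Gfap reached 19.2 and 23.4 CPM in flox and 1.71 and 1.82 CPM in KI, a difference that lost its call without KI day 8 clone 48 (4.56, adjusted p = 0.139). Of the astrocyte list 13 genes were called, 9 higher in flox. The flox effect was the lower in 8 of 9 called endothelial genes, with Kdr the exception. Vwf, an endothelial gene outside the list, was at 14.5 and 16.2 CPM in flox and 1.75 and 1.24 CPM in KI at day 8. At day 16 Vwf was at 0.158 and 0.0250 CPM in flox and 0.408 and 0.0379 CPM in KI, so its difference rests on few day 16 reads. So does that of Tie1, a list member, at 0.0527 and 0 CPM in flox and 0.204 and 0.0190 CPM in KI. Without KI day 16 clone 27 only 5 differences of the list were called, 1 higher and 4 lower in flox. The differences of Tie1, and of Cd93 and Vwf outside the list, then shrank to -2.77, -2.38 and -1.99. In other non-neural lists the median of flox minus KI moved with single libraries or rested on few calls. For extraembryonic endoderm it was -0.11 with 2 genes called, but 0.14 with 6 called, all 6 higher in flox, without KI day 16 clone 27. For cardiac muscle it was -0.36, from -0.80 without flox2 at day 16 to -0.17 without flox1 at day 8, and for erythroid genes -4.05 with 1 of 8 called. The cardiac list's own medians were 0.71 in flox and 0.56 in KI, and the flox value was -0.25 over members with at least 1 CPM in 2 libraries. The part of these cell types in the neuronal differences was not tested.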

How the data were processed

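RNA tables of 37 libraries gave for each RefSeq transcript a read count and an RPKM value, as deposited by the authors. Per the file headers the columns are Read Count and RPKM, and RPKM was a constant multiple of the count over transcript length within each library. The submitters' processing notes name bcl2fastq, Bowtie2, STAR, SICER 1.1 and the build mm9. The counter, its annotation and its use of strand are not given in the sources used here. The extraction protocol names poly(A) selection and a kit not stated to keep strand.

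Of 29082 transcripts per table, 28436 matched a symbol, and the 646 others held 1.55 to 1.93% of reads in the flox neural libraries. For each of 23109 gene entries the transcript with most reads over all libraries stood for the gene, which was a choice for 3760 of them. The 8 neural libraries entered 1 fit in edgeR 4.0.16 (R 4.3.3) with filterByExpr (at least 10 reads), TMM scaling, robust quasi-likelihood dispersion and Benjamini-Hochberg adjustment. Contrasts were day 16 minus day 8 within flox, within KI, and the difference of these. A standard error is the absolute log2 fold change over the square root of F. CPM are counts over the TMM-scaled library size, scaled over the 6 flox libraries for stem cells and day 4 aggregates. Genes with an adjusted p under 0.05 were called. The common biological coefficient of variation was 9.48%. The fit was also run on simulated counts with 200 genes changed. Far more were called in the data, so that run does not check the calls here. DESeq2 1.42.0 served as an alternative.

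Read ratios carry exact 95% counting intervals, and a fold against 0 reads is a bound with 3 reads over both libraries of the group. Both cover counting error only, since reads carry no molecular identifiers. Members, the 40 lists and the motifs were chosen with earlier results of these data known. Named genes were the 12 highest and 12 lowest changes among called genes with non-overlapping libraries, a named symbol and at least 10 CPM in the higher group. From each list came the member highest in RPKM, the largest rise and fall, the exceptions and members named for their role. Kmt2c, Kmt2d and the 6 highest and 6 lowest flox minus KI differences were also named. Of 680 list genes 675 were in the tables and 631 were tested. Sequences came from RefSeq, build GRCm38.p6, matched by symbol for 12454 of the genes tested. Alternatives covered scaling, filters, transcript choice, gene length, DESeq2, the fit on 4 libraries and each library left out. Some list members are not reported here.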

Additional observations from a re-analysis of the deposited data

Results flagged for a closer look

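The day effect differed between flox and KI cells in 5450 genes by the test of the difference itself (edgeR, adjusted p under 0.05), and 12 of these are given with their values: the 6 highest and the 6 lowest differences among called genes with a named symbol, flox libraries that do not overlap between the days and a mean of at least 10 CPM in 1 or more of the 4 groups. Krt19, a keratin of epithelia and mesothelium, had the highest of these at 6.32 on the log2 scale (SE 0.38). C3, the complement component, followed at 5.94 (SE 0.37). Ltbp2, a matrix protein, rose from 0.176 and 0.223 CPM to 29.7 and 35.7 CPM in flox and stood at 0.978 and 0.607 CPM in KI at day 16, a difference of 5.50 (SE 0.58, adjusted p = 3.2e-05). The difference of Gfap was 5.41 (SE 1.23, adjusted p = 0.00546), with 1 read in the flox day 8 libraries together. Msx2, a homeobox factor of dorsal midline and mesenchyme, went from 10.7 and 10.4 CPM to 2.07 and 2.38 CPM in flox and from 57.8 and 76.8 CPM to 0.428 and 0.341 CPM in KI, a difference of 5.20. Adgrg6, an adhesion receptor, differed by 4.69, from 16.6 and 16.9 CPM to 12.0 and 9.85 CPM in flox and from 84.9 and 83.7 CPM to 2.38 and 1.88 CPM in KI.

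On the negative side Hk3 differed by -5.71 (SE 1.07, adjusted p = 0.00161), and in KI it was at 0.688 and 0.799 CPM at day 8 already. Crym, a thyroid hormone binding protein, fell in flox from 7.91 and 8.65 CPM to 2.53 and 2.63 CPM and rose in KI from 0.888 and 0.699 CPM to 10.2 and 10.3 CPM, a difference of -5.38 (SE 0.23, adjusted p = 9.49e-08). Of the endothelial genes Tie1 differed by -5.14, Cd93 by -4.66 and Vwf by -4.43, and without KI day 16 clone 27 by -2.77, -2.38 and -1.99, none of them then called. Tac1, which encodes substance P, reached 21.2 and 18.1 CPM in flox at day 16 and differed by -3.92 (adjusted p = 3.64e-05). The causes of these differences were not tested.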

How the results depend on the processing

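The number of genes changed between the days was 11307 to 12296 with 1 flox library left out and 6961 with a minimum of 2-fold. The number whose day effect differed from KI was 3621 to 6038 with 1 library left out, the lowest without flox2 at day 8, when 3588 calls were shared with the full fit, and 2189 with a minimum of 2-fold. With the flox day 8 libraries summed as 1 sample, an alternative chosen after seeing the data, they were 11613 and 3735. DESeq2 called 12034 and 5044. With the replicate block the counts were 12782 and 5914 (12545 and 5314 shared), while deviations of same-numbered libraries correlated at 0.0342 in flox and 0.184 in KI. The labels do not say that a number pairs libraries across days.

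Directions turned for Kmt2c (-0.19) and Kmt2d (-0.74) with the length trend removed, for the medians of the transmitter list (2.33) and the cardiac list (-0.25) with at least 1 CPM in 2 libraries, and for that of glycolysis (0.18) without the 100 most abundant genes. Of 552 called list genes 0 to 31 lost their call under an alternative. With the length trend removed 7 changed sign, of which Kmt2c and Tet3 were called in the opposite direction, and 0 changed sign under the others. Differences of single genes lost their call in 8 cases, among them Vwf without flox day 8 replicate 1 or 2 (adjusted p = 0.0564 and 0.0589) and Cd93 without flox day 16 replicate 1 (adjusted p = 0.0501). The cause was not tested. A left-out library leaves 1 sample in its group, which is then assumed to vary like the others. Depth limits what can be seen below 0.0527 to 0.075 CPM, and each group has only 2 libraries.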
